A study of Mus musculus with 14 samples.

Results

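The genes described here encode 5 subunits of the phagocyte NADPH oxidase, Cybb, Cyba, Ncf1, Ncf4 and Rac2, and were chosen by gene symbol from the deposited expression table. All 5 had a row, out of 19940 genes in the table. Their transcripts were measured by RNA sequencing in monocyte-derived macrophages sorted from the central nervous system of mixed bone marrow chimeras, when experimental autoimmune encephalomyelitis, which serves as a model of multiple sclerosis in mice, was at its peak. The 14 libraries were 7 mCAT libraries, sorted by the CD45.2 marker from donor cells with the genotype CCR2creERT2/+ mcat lsl/wt, and 7 wt libraries, sorted by CD45.1 from wild-type donor cells. In mCAT cells, a CreERT2 recombinase that tamoxifen activates was inserted at Ccr2, and 1 allele held a catalase construct behind a stop cassette that Cre removes; mCAT commonly denotes catalase targeted to mitochondria. Every sample is labelled as tamoxifen-treated, and every host had been irradiated and had received equal numbers of marrow cells of both genotypes. Cre is therefore driven where and when Ccr2 is active, and the genotypes also differ in their CD45 marker and their Ccr2 allele, so that effects of these cannot be told apart from that of the catalase. The labels give neither the age of the animals nor whether the 7 replicates were separate animals, so that the p-values measure the spread between these libraries, which may be partly technical.

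The phagocyte NADPH oxidase passes electrons from NADPH across the membrane to oxygen and so makes superoxide, which becomes hydrogen peroxide, the substrate of catalase. Its catalytic core is a membrane heterodimer of CYBB (gp91phox, also called NOX2) and CYBA (p22phox). On activation, cytosolic subunits, among them NCF1 (p47phox) and NCF4 (p40phox), and a Rac GTPase, RAC2 in many blood phagocytes, join this core. In humans, inherited loss of the core or cytosolic subunits causes chronic granulomatous disease, in which phagocytes fail to kill certain microbes. In the inflamed nervous system, infiltrating macrophages and resident microglia both express the enzyme.

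Promoter sequences from RefSeq on GRCm38.p6, a build that differs from the GRCm39 assembly named for the libraries, were matched by symbol for 3 of the 5 genes, Cybb, Cyba and Ncf1. They are shown because the first gene varied widely between libraries, as described further on, whereas the other two varied little. Each is the stretch of 250 bases that ends just before the annotated start, read 5′ to 3′ on the gene's own strand, which is the minus strand for all 3, in lower case with the motif CCAAT in capitals. The positions are chrX:9469325-9469574 for Cybb, chr8:122432941-122433190 for Cyba and chr5:134229626-134229875 for Ncf1.
Cybb: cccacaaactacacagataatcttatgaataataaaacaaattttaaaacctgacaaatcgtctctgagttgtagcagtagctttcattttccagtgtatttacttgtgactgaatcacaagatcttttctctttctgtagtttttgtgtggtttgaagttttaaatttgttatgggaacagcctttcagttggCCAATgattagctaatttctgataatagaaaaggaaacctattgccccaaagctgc
Cyba: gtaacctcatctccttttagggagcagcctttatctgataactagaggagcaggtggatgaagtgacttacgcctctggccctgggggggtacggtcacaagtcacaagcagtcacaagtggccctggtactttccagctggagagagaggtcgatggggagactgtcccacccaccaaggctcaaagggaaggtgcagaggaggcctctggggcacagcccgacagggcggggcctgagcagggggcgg
Ncf1: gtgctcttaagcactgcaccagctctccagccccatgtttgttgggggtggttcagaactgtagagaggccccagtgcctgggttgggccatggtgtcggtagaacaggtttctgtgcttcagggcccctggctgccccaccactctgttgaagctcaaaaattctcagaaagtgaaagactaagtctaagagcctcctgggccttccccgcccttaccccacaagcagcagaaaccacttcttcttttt
The Cybb promoter was rich in A and T, with a GC content of 34.0%, and 3.9% of all promoters in the table had a lower one. The GC content was 60.0% for Cyba and 54.4% for Ncf1, against a median of 52.4% over all 32851 promoters. The Cybb stretch held 1 CCAAT, on the coding strand and starting 56 bases before the annotated start, and the other two held none on either strand. Of all promoters, 33.8% held CCAAT or its reverse complement ATTGG within the same window. The letters GGAA or TTCC, the short core of sites for transcription factors of the ETS family such as PU.1 (Spi1), were in all 3 stretches, as in 93.4% of all promoters. The longer form GAGGAA or TTCCTC, which contains that core, was in none of the 3 and in 23.3% of all promoters. These matches describe letters only.

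Values are given as normalised counts, read back from the log2-like scale of the deposited table, and differences as log2 values on the deposited scale, mCAT minus wt. A gene was tested if it had at least 10 normalised counts in at least 7 libraries, which left 12096 genes, all 5 subunits among them. A gene was called when its adjusted p, from limma over all tested genes with Benjamini-Hochberg adjustment, was below 0.05. The estimated depth was 27400000 to 47000000 reads in mCAT libraries and 16500000 to 43300000 in wt libraries, the lowest being wt 7. In a principal component analysis, wt 1 stood apart from the other libraries, and mCAT 6, mCAT 7, wt 6 and wt 7 lay together at the other end of the first component. The summed level of 7 macrophage marker genes was 420560 to 1883200 normalised counts in mCAT and 254960 to 1769000 in wt libraries. Most of it was Apoe. Among other cell types, sums of oligodendrocyte, astrocyte and endothelium markers reached 4373.5, 5395.6 and 3652.3 in mCAT and 7423.4, 5236.8 and 4694.5 in wt. No threshold was set for these sums, so they describe the libraries and do not test the identity or purity of the cells. Mouse catalase, Cat, averaged 2831 ± 808 in mCAT and 2155 ± 626 in wt libraries (SD, n = 7 each) and was not called (adjusted p = 0.878), though it was higher in mCAT in all 6 pairs of libraries described further on (paired log2 difference 0.29, adjusted p = 0.385); a transgene that aligns elsewhere would not be counted in it. Ccr2, the gene that carries the recombinase, had 8391 ± 2975 normalised counts in mCAT and 13740 ± 5015 in wt libraries. It was not called in the unpaired fit (log2 difference -0.68, adjusted p = 0.878). It was lower in mCAT in all 6 pairs and called in the paired fit (paired log2 difference -0.80, adjusted p = 0.00563).

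The 2 membrane subunits had the highest levels of the 5 genes, and neither differed between genotypes beyond the spread of the libraries. Cybb (ENSMUSG00000015340, chromosome X), the catalytic subunit that carries the electrons, had a lowest, median and highest level of 57202, 80540 and 119672 normalised counts in mCAT libraries, against 46501, 63358 and 120933 in wt libraries. The highest library of each genotype, mCAT 7 and wt 7, reached almost the same level, and the ranges overlapped over most of their length. The means were 84817 ± 22276 in mCAT and 70418 ± 25907 in wt libraries (SD, n = 7 each). The log2 difference was 0.30 (SE 0.22, 95% confidence interval -0.16 to 0.76, adjusted p = 0.878), and an exact permutation test over all splits gave a two-sided p of 0.221. As a fold, that interval runs from 0.895 to 1.69, so that a rise of up to that size was within the error of these libraries.

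Cyba (ENSMUSG00000006519, chromosome 8), the partner that stabilises CYBB and docks the cytosolic subunits, had 35871, 45226 and 51406 normalised counts as lowest, median and highest in mCAT libraries, against 41159, 48117 and 56767 in wt libraries. Most libraries of both genotypes lay in the range the genotypes shared. Its log2 difference was -0.13 (SE 0.12, interval -0.39 to 0.12, adjusted p = 0.892, exact permutation p = 0.168). The point estimates of the 2 core subunits thus had opposite signs, and both intervals included 0.

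Of the cytosolic subunits, neither Ncf1 nor Ncf4 differed between genotypes beyond the spread of the libraries, and the same held for Rac2. Ncf1 (ENSMUSG00000015950, chromosome 5), the organiser that is phosphorylated on activation and carries the cytosolic complex to the membrane, had 12047, 13751 and 14823 normalised counts as lowest, median and highest in mCAT libraries, against 9761, 12342 and 16294 in wt libraries. All mCAT libraries lay inside the wt range, whose SD was 2190 against 885 in mCAT. The log2 difference was 0.16 (SE 0.12, interval -0.09 to 0.41, adjusted p = 0.878, exact permutation p = 0.141). A stretch of 179 bases of the Ncf1 transcript is identical in Gtf2ird2, which averaged 206 normalised counts, so reads from that stretch cannot be told apart.

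Ncf4 (ENSMUSG00000071715, chromosome 15), the subunit that binds a phosphoinositide of the phagosome membrane, had 5437, 8812 and 10065 normalised counts as lowest, median and highest in mCAT libraries, against 5469, 8629 and 11949 in wt libraries. The lowest libraries of the genotypes were almost equal, and the highest was wt 1. The log2 difference was -0.14 (SE 0.19, interval -0.55 to 0.26, adjusted p = 0.924, exact permutation p = 0.502). Rac2 (ENSMUSG00000033220, chromosome 15), the GTPase that switches the assembled enzyme on, had 9995, 11148 and 12145 normalised counts in mCAT libraries, against 8670, 9512 and 12602 in wt libraries. Here too the mCAT libraries lay inside the wt range. Its log2 difference was 0.09 (SE 0.11, interval -0.14 to 0.32, adjusted p = 0.913, exact permutation p = 0.285).

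**Figure D1:**
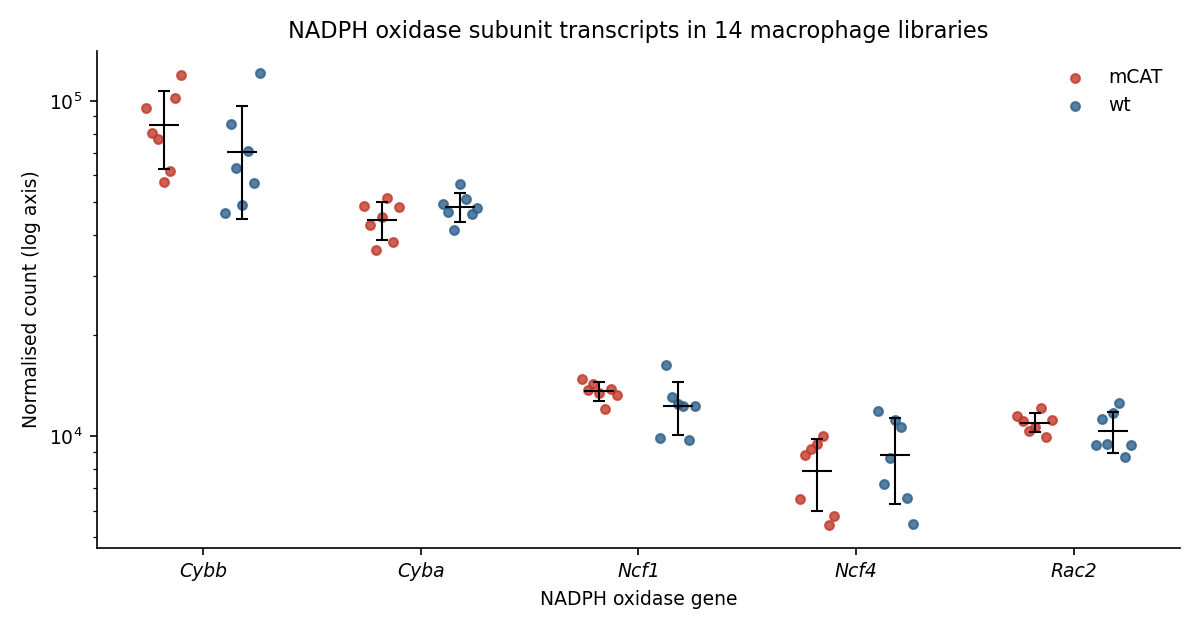
Normalised counts of Cybb, Cyba, Ncf1, Ncf4 and Rac2 in each library (points), mCAT left of wt, with the mean and SD of the 7 libraries of each genotype. The genotypes overlap in every panel, and Cybb runs from 46501 to 120933 over all libraries.

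Of the 5 subunits, 0 were called between genotypes, with 0 at an unadjusted p under 0.05, and 0.198% of all tested genes were called (24 of 12096). No subunit had mCAT and wt libraries that did not overlap, as 0.24% of all genes did. The median log2 difference of the 5 genes was 0.09, with 3 above 0, against a median of 0.00 and 49.7% above 0 over all tested genes. In bulk RNA of this kind, fewer cells of a type and less RNA per cell cannot be told apart. Sums were taken for 12 lists of cell type markers. Those given here were picked because they went in 1 direction in all 6 pairs of libraries described next. The rest were higher in mCAT in 1 to 4 of these pairs. The summed level of 6 T cell markers, 77.2 to 326 normalised counts in mCAT and 241 to 776 in wt libraries, was lower in mCAT in 6 of 6 pairs. The macrophage marker sum given above, mostly Apoe, was higher in mCAT in 6 of 6 pairs. Of its 7 markers, 6 had a log2 difference above 0, Fcgr1 had -0.12 (adjusted p = 0.949), and none was called. The sum of 12 neutrophil markers was also higher in mCAT in 6 of 6 pairs, at 10522 to 40256 in mCAT and 10196 to 29171 in wt libraries. Such sums follow their most abundant genes and need not hold for each marker. Of these 12 neutrophil markers, 7 passed the filter and Mmp8 was the only one called in the paired fit (adjusted p = 0.0332). In the unpaired fit Mmp8 was not called (adjusted p = 0.887). It had the highest median of the 12, 6594 in mCAT and 4731 in wt libraries, and ran from 4591 to 31280 in mCAT and 2932 to 20130 in wt. Of the 7, 6 had a log2 difference above 0, and S100a8 had -0.25, at 1733 to 4555 in mCAT and 1787 to 4857 in wt. Csf3r had 3356 to 6865 in mCAT and 3432 to 5377 in wt. S100a9, Ngp and Ltf had highest libraries of 1286, 2909 and 1291 in mCAT and 271.7, 38.68 and 34.06 in wt. Their medians were closer, at 128.2, 115.1 and 21.52 in mCAT and 77.02, 16.02 and 14.49 in wt. None of these was called in either fit (paired adjusted p = 0.881, 0.671 and 0.955). Below the filter were Retnlg, Camp, Elane, Ly6g and Mpo. Ly6g had 3.03 to 19.5 in mCAT and 1.78 to 30.1 in wt, and Mpo 0 to 3.23 in mCAT and 0 to 8.58 in wt. The part of these markers in the values of the 5 subunits was not tested.

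The library codes share a stem for 6 pairs of 1 mCAT and 1 wt library, and libraries of 1 stem deviated together from their group means over all genes. Pairing the libraries by stem narrowed the error for Cybb and called none of the 5 subunits. In that fit 38 genes, 0.314% of those tested, were called. Cybb was higher in mCAT in 4 of 6 pairs, with a paired log2 difference of 0.23 (SE 0.11, interval -0.01 to 0.47, adjusted p = 0.559) and single pairs between -0.19 and 0.84. None of the 5 subunits was higher in mCAT in all 6 pairs, as 2.74% of all tested genes were. An exact two-sided sign-flip test over the 6 pairs gave p = 0.188 for Cybb, where 0.0312 is the smallest p that 6 pairs allow. Cyba, Ncf1 and Rac2 were also higher in mCAT in 4 of 6 pairs and Ncf4 in 2 of 6. Their paired log2 differences were -0.08 for Cyba, 0.10 for Ncf1, 0.08 for Rac2 and -0.10 for Ncf4, with adjusted p-values between 0.691 and 0.778. For Cyba the paired difference was below 0 although most pairs were higher in mCAT.

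The levels of 2 of the 5 subunits, Cybb and Ncf4, differed between the pairs. This comparison was added after the data had been seen. It tested, by limma's moderated F over the 12 paired libraries and with genotype in the model, whether the levels differed between stems, as they did for 23.4% of all tested genes. Cybb passed with an adjusted p of 0.00651 and Ncf4 with 0.000679, whereas Cyba had 0.344, Ncf1 0.334 and Rac2 0.274. Whether a stem stands for a host, a pool or a day is not given in the labels.

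Cybb was lowest in stem C1_5, with 57202 normalised counts in the mCAT and 49072 in the wt library. It was highest in stem C2_4, with 119672 in the mCAT and 120933 in the wt library, and the means of these 2 pairs differed 2.26-fold. Between them, in rising order of the pair means, stem C2_1 had 62007 in mCAT and 70871 in wt, and stem C1_3 had 80540 in mCAT and 63358 in wt. Stem C2_2 had 101955 in mCAT and 57012 in wt, the widest gap between genotypes of any pair, and stem C1_2 had 95222 in mCAT and 85178 in wt. The 2 libraries of a stem therefore lay close together in most pairs, and the wt library of C2_2 was the exception. Without stem C2_4 the difference between stems was not called for Cybb (adjusted p = 0.0983).

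Ncf4 was lowest where Cybb was highest. In stem C2_4 it had 5798 normalised counts in the mCAT and 5469 in the wt library, and in stem C2_2 it had 5437 in mCAT and 6543 in wt. Stem C1_2 had 6517 in mCAT and 7239 in wt, and stem C1_3 had 8812 in mCAT and 8629 in wt. The highest levels were in stem C1_5, with 9484 in mCAT and 11173 in wt, and in stem C2_1, with 10065 in mCAT and 10694 in wt. The means of the lowest and the highest pair differed 1.84-fold, and Ncf4 stayed called whichever stem was left out (adjusted p between 0.000705 and 0.00391). Cyba, Ncf1 and Rac2 had highest pair means of 1.22, 1.32 and 1.33 times their lowest, in that order.

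**Figure D2:**
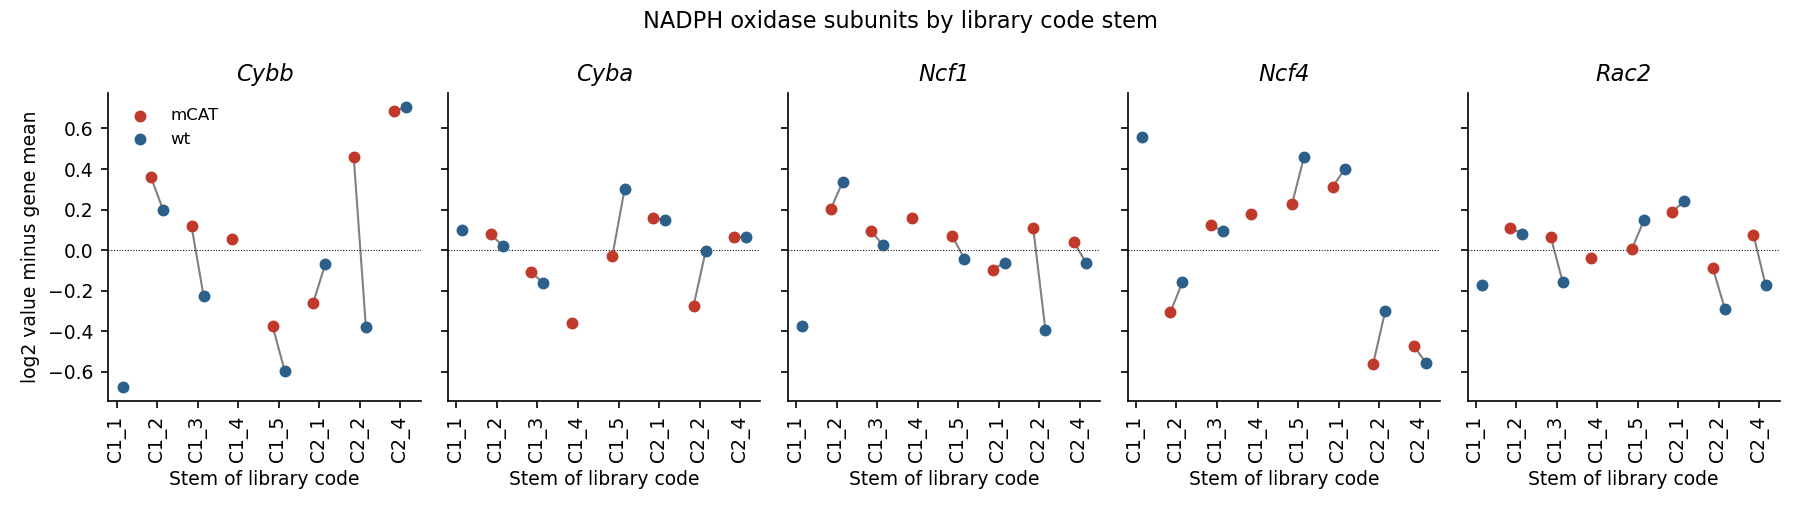
Deposited log2-scale values of the 5 subunits by code stem, each minus the mean of its gene over all libraries. The mCAT and wt library of each of the 6 pairs are joined by a line, and libraries without a partner are also shown. Cybb is highest and Ncf4 lowest in stem C2_4, and the pairs of Cyba, Ncf1 and Rac2 lie closer together.

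The macrophage marker sum was also highest in 2 of these stems, at 1883200 normalised counts in the mCAT and 1769000 in the wt library of C2_4, and 1776400 in mCAT and 1539600 in wt of C2_2. In the other paired libraries it was 391410 to 916370. Most of that sum was Apoe, which reached 1620000 in mCAT and 1546000 in wt libraries. Of the 7 markers, 6 were called between stems, as were 23.4% of all tested genes. The exception was Csf1r (adjusted p = 0.572). The sum of 5 microglia markers was 4322.5 in mCAT and 4198.6 in wt of C2_4 and 4497 in mCAT and 5130 in wt of C2_2, within the 2623 to 5332 of the other paired libraries. Among these 5, Sall1 was below the filter, with 1.58 to 30.3 in mCAT and 7.09 to 36.2 in wt libraries. Tmem119 had 1520 to 2692 in mCAT and 550.5 to 3500 in wt, and P2ry12 853.8 to 1254 in mCAT and 563.1 to 1453 in wt. Siglech had 46.8 to 257 in mCAT and 91.3 to 324 in wt, and Gpr34 36.0 to 382 in mCAT and 74.7 to 571 in wt. The wt library of stem C2_4 also had the lowest estimated depth, 16500000 reads. The part of these markers and of depth in the levels of Cybb and Ncf4 was not tested.

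Over libraries, higher levels of Cybb went with lower levels of Ncf4, a relation that passed the adjustment when both genotypes were pooled and not within either. Within the 7 mCAT libraries the log2 levels of the 2 genes had Pearson's r = -0.91 (exact permutation p = 0.00437, adjusted p = 0.0853 over 20 relations, 10 gene pairs in each genotype) and Spearman's rho = -0.93 (exact permutation p = 0.00675, adjusted p = 0.0675). Without the 2 libraries farthest from the median of Cybb, r in mCAT was -0.94. Within the 7 wt libraries r was -0.76 (exact permutation p = 0.0444, adjusted p = 0.296) and rho -0.75 (exact permutation p = 0.0663, adjusted p = 0.442), and r was -0.33 without the 2 farthest libraries, so that the wt relation rests on them. No relation passed the adjustment within a genotype. Over all 14 libraries, taken as deviations from their genotype means, and not independent since they share stems, r was -0.82 (permutation p = 0.0003, adjusted p = 0.003 over 10 gene pairs), rho was -0.81 and r without 2 libraries was -0.71.

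The ratio of Cybb to Ncf4 counts within a library shows the same values free of any scaling between libraries. Its lowest, median and highest values were 6.03, 9.14 and 20.6 in mCAT libraries, against 3.89, 7.34 and 22.1 in wt libraries. It was highest in mCAT 7 and wt 7, the 2 libraries of stem C2_4, and lowest in mCAT 4 and wt 1. None of the 10 ratios between subunits differed between genotypes by an exact permutation test (adjusted p between 0.163 and 0.956). The pair with the next closest relation was Cyba and Rac2, whose levels were positively related in mCAT (r = 0.88, exact permutation p = 0.00853, adjusted p = 0.0853). In wt libraries r was 0.60 (exact permutation p = 0.162, adjusted p = 0.589). Pooled over the 14 libraries in the same way, r was 0.62 (permutation p = 0.0168, adjusted p = 0.0838) and rho was 0.67 (permutation p = 0.00936, adjusted p = 0.0468), so that Cyba and Rac2 passed by rank and not by Pearson's r. The pooled test treats the libraries as independent although they share stems, so its p-values may be too small.

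**Figure D3:**
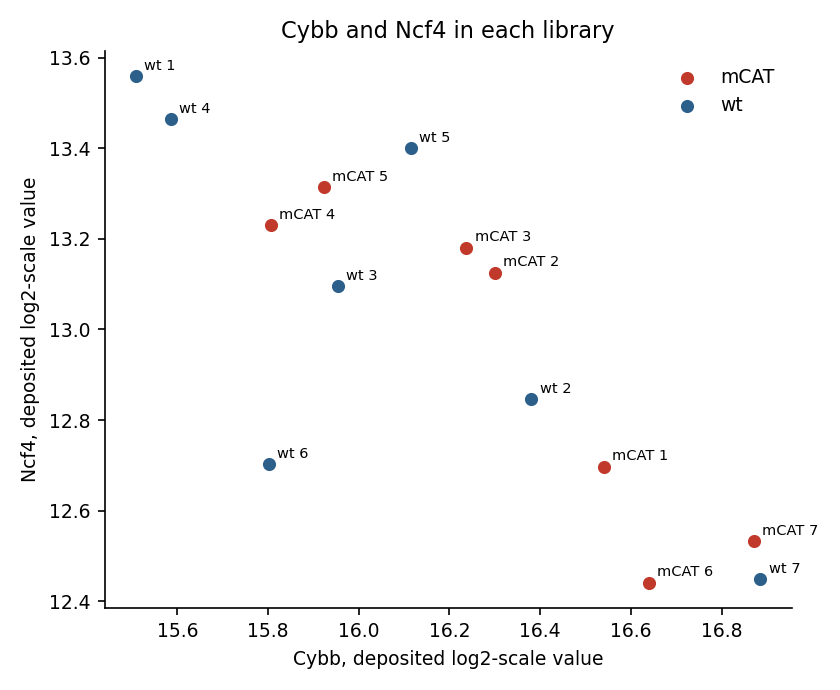
Cybb (x axis) against Ncf4 (y axis) in the 14 libraries, both as deposited log2-scale values, with mCAT and wt marked apart. Libraries with a high level of Cybb had a low level of Ncf4, with r = -0.91 within mCAT and -0.76 within wt.

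The codes also fall into 2 series, C1 and C2, whose meaning the labels do not give, and none of the 5 genes was called between them. In that comparison 7.47% of all tested genes were called. The largest log2 differences, C2 minus C1, were 0.33 for Cybb (SE 0.20, adjusted p = 0.339) and -0.34 for Ncf4 (SE 0.18, adjusted p = 0.252). The genotype difference, mCAT minus wt, was 0.21 in C2 and 0.36 in C1 for Cybb, -0.09 in C2 and -0.17 in C1 for Cyba, and 0.19 in C2 and 0.14 in C1 for Ncf1. It was -0.09 in C2 and -0.18 in C1 for Ncf4, and 0.13 in C2 and 0.06 in C1 for Rac2. Each subunit kept its sign in both series, and the test of the interaction called 0% of all genes, with 103 at an unadjusted p under 0.05 by limma.

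Per kilobase of transcript, Cyba was the most abundant of the 5 subunits. Its mean level over the 14 libraries ranked 42 among 12072 genes with a length, at 59523 normalised counts per kilobase in mCAT and 65139 in wt libraries. Cybb ranked 191, at 17849 in mCAT and 14819 in wt, and was lower than Cyba in all 14 libraries, by 3.82-fold on average. Ncf4 ranked 547, at 5394 in mCAT and 6020 in wt, and Ncf1 ranked 628, at 5022 in mCAT and 4528 in wt. These neighbours exchanged places, with Ncf4 above Ncf1 in 9 of 14 libraries, so that their order was within the spread. Rac2 ranked 833, at 3622 in mCAT and 3418 in wt, and was below Ncf1 in all 14 libraries.

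The 5 genes fell into a variable and a steady group over the libraries. The SD of the log2 level over all 14 libraries was 0.45 for Cybb and 0.39 for Ncf4, at percentiles 84.9 and 75.7 of all tested genes, where the median was 0.29. It was 0.20 for Ncf1, 0.18 for Cyba and 0.16 for Rac2, at percentiles 15.2, 8.61 and 4.54.

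For each subunit the 3 genes most like it were found by the root mean square difference of the centred log2 levels over the 14 libraries, for which 0 means an identical pattern. For Cybb these were Adam17, a membrane protease that sheds TNF, at 0.161, Cpt1a, which admits fatty acids to mitochondria, at 0.171, and Ganab, a glucosidase of the endoplasmic reticulum, at 0.172, against a median of 0.500 for all genes. Ncf4 was among the genes least like Cybb, at rank 11244 with a difference of 0.765. For Ncf4 they were Bst2, an interferon-induced tether of enveloped viruses, at 0.114, Sp110, an interferon-induced nuclear body gene, at 0.123, and Stk19 at 0.131. For Ncf1 they were Tspan14, a tetraspanin, at 0.0559, Ppp2r1a, the scaffold of protein phosphatase PP2A, at 0.0780, and the exoribonuclease gene Xrn2 at 0.0795. For Cyba they were the vacuolar ATPase subunit gene Atp6v1f at 0.0874, the mitochondrial ribosome gene Mrpl22 at 0.0896 and Emc7 at 0.0922, and for Rac2 they were Necap2 at 0.0514, Tor2a at 0.0607 and Coro1b, a coronin of the actin cortex, at 0.0877. A steady gene has many such neighbours, so that these lists do not set Ncf1, Cyba and Rac2 apart from other steady genes.

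Of 3 genes whose products assist or stabilise the enzyme, none was called between genotypes. Rac1, the Rac GTPase found in most cells, averaged 21659 ± 2270 normalised counts in mCAT and 20175 ± 3827 in wt libraries (log2 difference 0.12, adjusted p = 0.911), and it shares a stretch of 2309 identical bases with the transcript of Daglb, which makes its counts uncertain. Cybc1, a chaperone that the core heterodimer needs, averaged 4485 ± 247 in mCAT and 4265 ± 683 in wt libraries (0.08, adjusted p = 0.919). Rap1a, a small GTPase that copurifies with the core, averaged 3481 ± 377 in mCAT and 3514 ± 415 in wt libraries (-0.01, adjusted p = 0.990). None of the 3 was called between stems either, with adjusted p-values of 0.342 for Rac1, 0.890 for Cybc1 and 0.610 for Rap1a.

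Transcripts of the oxidase isoforms of other tissues were at low levels. Nox1 averaged 0.733 normalised counts in mCAT and 0.247 in wt libraries, Nox4 averaged 0.798 in mCAT and 0 in wt, and Duoxa1, a maturation factor of the dual oxidases, averaged 0 in mCAT and 0.633 in wt, all below the filter. Noxo1, the organiser that takes the place of NCF1 in the NOX1 enzyme, averaged 16.2 ± 12.6 in mCAT and 20.0 ± 14.7 in wt libraries, and Rac3 averaged 23.5 ± 10.2 in mCAT and 23.2 ± 10.1 in wt, neither called (adjusted p = 0.965 and 0.999). Nox3, Duox1, Duox2, Duoxa2 and Noxa1 had no row under these symbols and were not analysed here.

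Of 47 other pathway genes considered, 42 were tested and 0 were called by limma in either the unpaired or the paired fit, with 1 and 3 at an unadjusted p under 0.05, where 5.37% and 9.24% of all tested genes had such a p. Their median log2 difference was 0.06, with 25 of 42 above 0. The 20 genes that act upstream of the oxidase had 9 above 0 and a median of -0.04. Vav1, an exchange factor that loads Rac with GTP, had the smallest p, at 12285 ± 878 normalised counts in mCAT and 10204 ± 2134 in wt libraries (log2 difference 0.29, unadjusted p = 0.0404, adjusted p = 0.878). Akt1, a kinase that can phosphorylate NCF1, averaged 1224 ± 129 in mCAT and 1417 ± 208 in wt libraries (-0.19, adjusted p = 0.878). Hvcn1, the proton channel that balances the charge the oxidase moves, averaged 11917 ± 3078 in mCAT and 9333 ± 2745 in wt libraries (0.37, adjusted p = 0.878), and it was higher in mCAT in 5 of 6 pairs (paired difference 0.24, adjusted p = 0.512). Of the 2 genes that restrain or redirect the enzyme, Nrros, which lowers the amount of CYBB protein, averaged 8460 ± 1154 in mCAT and 7103 ± 1654 in wt libraries (0.27, adjusted p = 0.878; paired 0.24, adjusted p = 0.516). Rubcn, which takes part in LC3-associated phagocytosis, averaged 220 ± 53.0 in mCAT and 251 ± 114 in wt libraries (-0.09, adjusted p = 0.954).

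Among 7 transcription factors known to act on Cybb, 5 had a difference above 0 and none was called. Nfkb1, an NF-kB subunit, had the smallest paired p of the pathway, with 1431 ± 400 normalised counts in mCAT and 2283 ± 1603 in wt libraries, lower in mCAT in 6 of 6 pairs (paired log2 difference -0.28, adjusted p = 0.428). Its high mean and SD in wt rest partly on wt 1, at 5816. Its partner Rela had a log2 difference of 0.21 (adjusted p = 0.878). The ETS factors Spi1 and Elf1 had log2 differences of 0.09 (adjusted p = 0.945) and 0.20 (adjusted p = 0.878). The interferon-linked factors had -0.12 for Irf1 (adjusted p = 0.945) and 0.09 for Irf8 (adjusted p = 0.946). Irf1 was, like Nfkb1, lower in mCAT in 6 of 6 pairs (paired log2 difference -0.07, adjusted p = 0.780). So was Mapk14 of the upstream genes (paired log2 difference -0.11, adjusted p = 0.680). The share of all tested genes lower in mCAT in every pair was not determined. Cux1, a repressor of Cybb in myeloid cells, had 0.01 (adjusted p = 0.992).

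Of the enzymes that supply NADPH, 6 of 6 tested had a log2 difference above 0, between 0.06 and 0.24, as 49.7% of all tested genes had one above 0. None was called. In the paired fit their differences were smaller, from 0.04 for Pgls to 0.12 for G6pdx. The summed level of the listed enzymes was higher in mCAT in 3 of 6 pairs and lower in 3. G6pdx, the entry to the pentose phosphate pathway, had 0.21 (adjusted p = 0.878), Pgls 0.09 (adjusted p = 0.924) and Pgd, the other NADPH-making step, 0.11 (adjusted p = 0.911). In the non-oxidative steps Tkt had 0.10 (adjusted p = 0.916) and Taldo1 0.06 (adjusted p = 0.959), and Idh1, a cytosolic dehydrogenase that makes NADPH, had 0.24 (adjusted p = 0.911). Me1 averaged 8.42 normalised counts in mCAT and 9.91 in wt libraries, below the filter. Of the superoxide dismutases, which turn superoxide into hydrogen peroxide, the cytosolic Sod1 averaged 4709 ± 1227 in mCAT and 4967 ± 1740 in wt libraries (-0.04, adjusted p = 0.984). The mitochondrial Sod2 averaged 26139 ± 8403 in mCAT and 24585 ± 6295 in wt libraries (0.07, adjusted p = 0.978), and the secreted Sod3 averaged 5.53 in mCAT and 5.19 in wt, below the filter.

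**Figure D4:**
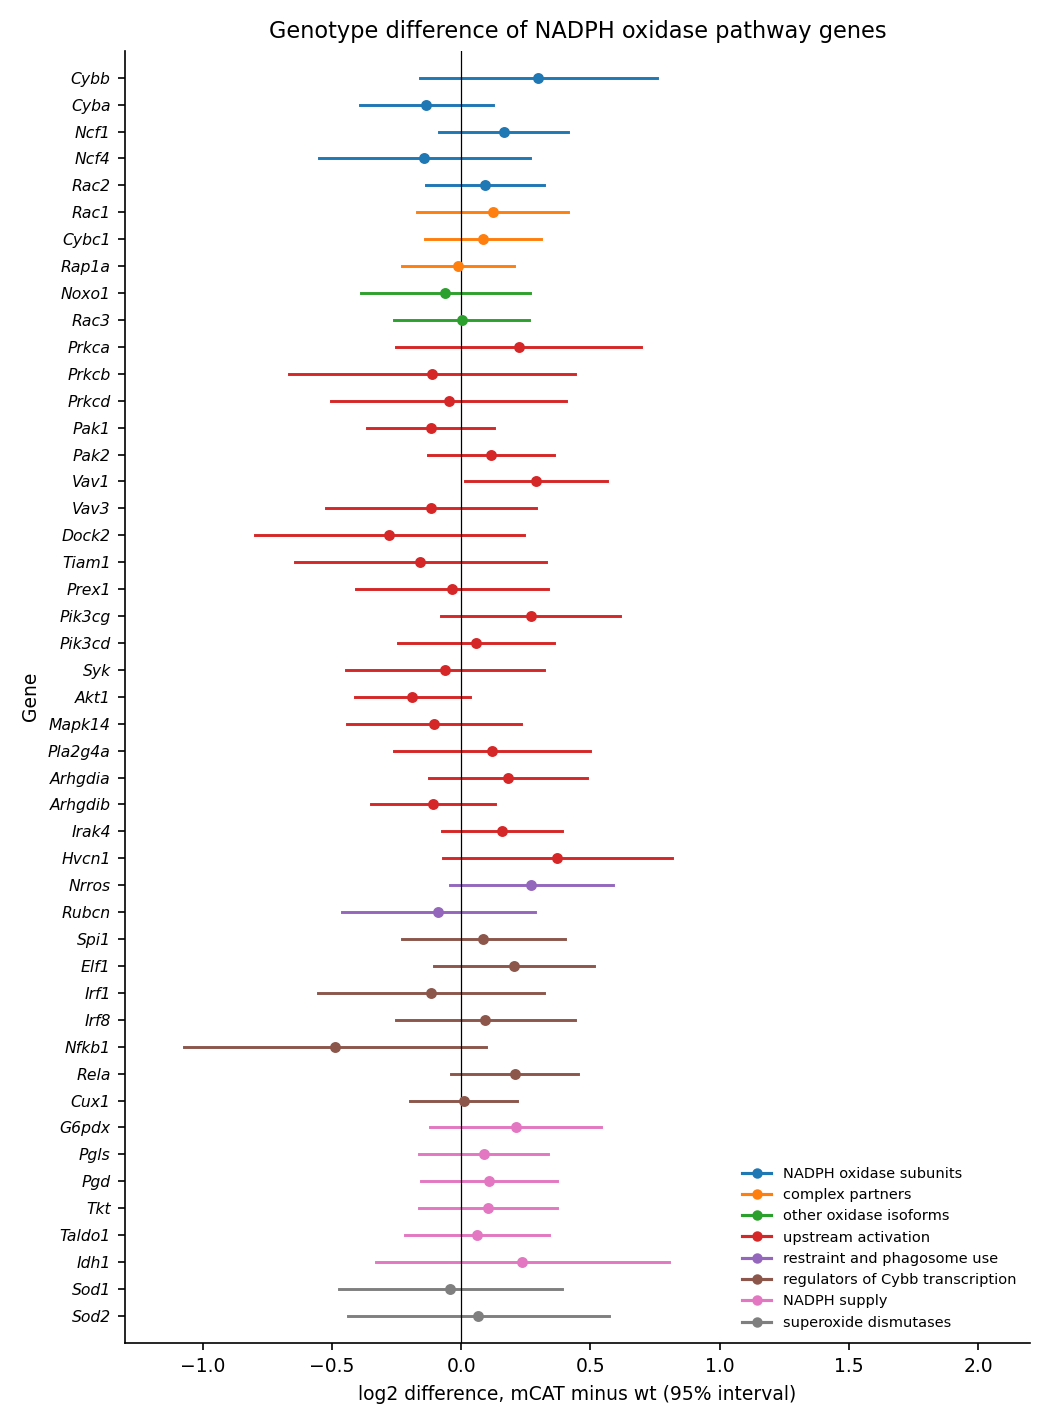
Log2 difference, mCAT minus wt, with its 95% confidence interval for the 5 subunits and the 42 other pathway genes tested, coloured by list, with a vertical line at 0. The point for Cybb lies at 0.30 and that for Ncf4 at -0.14, and no gene shown was called between genotypes.

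Between stems, 14 of the 42 other pathway genes differed, 33.3% against the 23.4% of all tested genes given above. Hvcn1 followed the same order of stems as Cybb, with 9084 normalised counts in the mCAT and 7456 in the wt library of C1_5, its lowest stem, and 16842 in mCAT and 12779 in wt of C2_4, its highest (adjusted p = 0.0268). Mapk14, the stress kinase p38 alpha, and Prkcb, a protein kinase C isoform, were also lowest in C1_5 and highest in C2_4, with pair means 2.18-fold and 3.50-fold apart (adjusted p = 0.00371 and 0.000608). Tiam1, a Rac exchange factor, was lowest in C2_4 and highest in C2_1 as Ncf4 was, and its order of stems had the same lowest 2 and highest 2 (adjusted p = 0.0248). Of the 7 transcription factors, 4 differed between stems, Spi1, Irf1, Irf8 and Nfkb1, and each was highest in stem C1_5, where Cybb was lowest. Irf1 had the smallest p of these (adjusted p = 5.49e-05), with pair means 2.48-fold apart. Sod2 differed 2.94-fold between its lowest stem, C2_2, and its highest, C1_5 (adjusted p = 4.77e-05), and Sod1 2.09-fold between C1_3 and C2_2 (adjusted p = 0.00174). The other genes that differed between stems were Prkcd, Pla2g4a, G6pdx and Idh1. These stem values are set side by side with no test of the likeness between genes.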

How the data were processed

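Polyadenylated RNA was extracted with a Qiagen RNeasy Micro kit and made into Smart-seq2 libraries, which carry no strand information, per the labels' protocols. The tools named per the submitters' processing notes are FastQC, fastp and Salmon, with the GRCm39 build; no versions or annotation are named there (not given in the sources used here). Deposited values are on a log2 scale, per the file's own values, although the table is named as counts: they hold no whole numbers and share a lowest value of 5.9641 in all 14 libraries. They were taken as a variance-stabilised scale, and normalised counts q were read back from each value v as the square of (2 to the power v, minus k) divided by 2 to the power v, with k = 62.4282. Depth was estimated from the steps between low values, of which 53.2% to 73.4% per library were whole to within 0.15 reads, so it is approximate, and no count test was run. Genotype was tested on the deposited values with limma 3.58.1 (trend and robust moderation, statmod 1.5.0, R 4.3.3), without a block. This replaces the count test that had been planned had the values been counts. A second fit paired 12 libraries by code stem. The stem was taken as the block because deviations from the group means correlated in each of the 6 pairs (0.232 to 0.659). Title numbers 1 to 3, which join libraries of different stems, had -0.294, 0.158 and 0.252, not all above 0.1. The last of these exceeds the 0.232 of stem C2_1, so these correlations, from the same data, do not by themselves establish the pairing. Exact permutation and sign-flip tests were two-sided. Lengths are those of GENCODE transcripts, and copies were searched with BLAST (at least 95% identity over 150 bases). The fits were checked on simulated data. Alternatives were another filter, scale, normalisation or moderation, each replicate left out, each code series alone and both pairings. Named were all 5 subunits, all genes of the lists of partners, restraint, regulators, NADPH supply and dismutases, of the upstream and isoform lists the called genes and the 3 with the smallest p, and the 3 genes most like each subunit; genes named for differing between stems were chosen after their values were seen. Some genes of the planned lists are not reported here. The members and lists were chosen with earlier results of these data known.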

Additional observations from a re-analysis of the deposited data

Results flagged for a closer look

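None of the 5 subunits had a library far from the others of its genotype. For each group, the gap between its lowest or highest library and the neighbour was taken as a share of the range, on the deposited log2 scale. Over these and the other tested pathway genes, 47 in all, that share exceeded Dixon's 95% critical value in 8 of 94 groups of 7 libraries. Chance flags about 1 in 20 groups. Levels below are normalised counts, so the shares beside them cannot be worked out from these counts. In 5 of the 8 flagged groups the library set apart was wt 1. It was the lowest wt library for Rac1 (12741 normalised counts against 18557 to 24479, share 0.575) and for Elf1 (931 against 1358 to 1741, share 0.597). It was the highest for Dock2, a Rac exchange factor (5558 against 1293 to 2257, share 0.626), for Syk, a kinase downstream of phagocytic receptors (7240 against 2619 to 3904, share 0.611), and for Nfkb1 (5816 against 1163 to 2163, share 0.624). Pgls was lowest in mCAT 4 (1641 against 2057 to 2410, share 0.585). Sod2 was lowest in both libraries of stem C2_2, at 11937 in mCAT 6 against 23239 to 38348 in the other mCAT libraries (share 0.570) and 11879 in wt 6 against 21971 to 31655 in the other wt libraries (share 0.627).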

How the results depend on the processing

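Under 26 alternatives each, the difference between genotypes kept its sign and was not called for any of the 5 subunits. Leaving out 1 replicate gave log2 differences of 0.21 to 0.44 for Cybb, -0.17 to -0.09 for Cyba, 0.11 to 0.23 for Ncf1, -0.25 to -0.06 for Ncf4 and 0.05 to 0.14 for Rac2. The count of genes called between genotypes was 24, against 38 with the replicate block by library stem, 15 in code series C1 alone and 9 in C2 alone. It was 18 to 25 when 1 replicate was left out and 25 with a block by title number. The block by stem changed the call of none of the 5 subunits. The number of subunits that differed between stems, 2, was 1 without stem C2_4, the setting under which Cybb was lost, and 1 to 2 over all stems left out. The count of relations between subunits past the adjustment was 0 within genotypes by either coefficient, and over all 14 libraries 1 by Pearson's r and 2 by Spearman's rho. The counts over all 14 libraries treat libraries that share stems as independent. Transcript levels say nothing of protein or oxidase activity, and 7 libraries a genotype leave differences inside the intervals given undetected.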
